A study of Mus musculus with 9 samples.

Results

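In naive CD8+ T cells, 447 autosomal regions carried an H3K27ac island of nearly the same extent in wild type (WT) and in Tcf1/Lef1 double knockout (dKO) cells, but with fewer reads per kb in dKO after each list was scaled to its total. An island is a stretch of the genome that the study's peak caller found enriched for reads. The WT and dKO island lists were merged into 76633 regions wherever islands shared 1 bp or more. Of these, 44698 autosomal regions held islands of both lists, and 12862 held exactly 1 island from each list whose overlap was at least 80% of both islands (same-width pairs). The 447 members were selected on the measured depth itself, as the pairs whose dKO/WT ratio was 1/1.5 or less (3.48% of all same-width pairs). The depth ratio of members is therefore given as a description only. Position, sequence, neighbouring regions and the study's RNA, accessibility and hub lists were not part of the rule.

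The study compared WT mice (hCD2-Cre+ and Rosa26-GFP, with wild-type Tcf7 and Lef1) with dKO mice (also hCD2-Cre+ and Rosa26-GFP, with both genes floxed, Tcf7 fl/fl and Lef1 fl/fl, and labelled Tcf1-/-Lef1-/-), young adults of both sexes on a C57BL/6 background. Both groups carried the Cre transgene, which acts mainly in mature T cells, and the GFP reporter, by which cells that had undergone Cre excision were sorted as GFP+ TCRbeta+ CD62L high CD44 low-to-medium CD8+ splenocytes. There were 4 WT and 3 dKO H3K27ac ChIP-seq libraries and 1 input library for each genotype. The replicates of a genotype were pooled before islands were called, so each region has 1 WT and 1 dKO count, no spread between mice can be given, and no difference was tested. The intervals given below with log2 ratios are 95% Wilson intervals of the dKO share of the counts. Those given with motif densities are 95% intervals of the number of motif matches. Both cover counting error only.

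H3K27ac, acetylation of lysine 27 of histone H3, is laid down by the acetyltransferases CBP and p300 and marks active promoters and enhancers. Tcf1 (gene Tcf7) and Lef1 are HMG-box transcription factors that bind the Tcf/Lef motif, act with beta-catenin and Tle corepressors in Wnt signalling, and maintain the identity of T cells from the thymus onward. In CD8+ T cells they are highest in naive and memory cells.

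Sequences of members are shown first, from the mouse mm9 assembly, because position and sequence were not used by the rule, although both varied with depth. The first set shows 3 listed accessible sites that lie inside members. The study mapped accessibility by DNase-seq and grouped the sites that differed between genotypes, and its cluster 4 holds sites less accessible in dKO cells that were linked to genes lower in dKO cells. The central 300 bases of each site are given, and capitals mark matches to the Tcf/Lef motif, searched on both strands as CTTTGAA and as CTTTGAT. The form CTTTGAT is the reverse complement of ATCAAAG, the core consensus that the study scanned for. The Adk site lies in an intron of Adk, the gene of adenosine kinase, the Odc1 site lies upstream of Odc1, the gene of ornithine decarboxylase, and the Olig3 site is intergenic.
Adk site, chr14:21931997-21932296, + strand: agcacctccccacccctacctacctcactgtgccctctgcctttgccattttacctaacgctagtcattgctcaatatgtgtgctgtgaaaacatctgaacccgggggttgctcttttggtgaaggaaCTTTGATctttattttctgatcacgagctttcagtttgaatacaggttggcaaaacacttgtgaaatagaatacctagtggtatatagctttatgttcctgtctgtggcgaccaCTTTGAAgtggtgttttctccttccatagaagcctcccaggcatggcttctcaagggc
Odc1 site, chr12:17517936-17518235, + strand: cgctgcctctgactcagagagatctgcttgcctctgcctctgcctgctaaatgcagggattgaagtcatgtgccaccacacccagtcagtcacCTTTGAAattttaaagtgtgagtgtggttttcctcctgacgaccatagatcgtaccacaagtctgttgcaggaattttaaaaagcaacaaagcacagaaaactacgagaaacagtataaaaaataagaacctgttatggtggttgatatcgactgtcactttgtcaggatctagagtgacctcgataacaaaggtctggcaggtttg
Olig3 site, chr10:19041551-19041850, + strand: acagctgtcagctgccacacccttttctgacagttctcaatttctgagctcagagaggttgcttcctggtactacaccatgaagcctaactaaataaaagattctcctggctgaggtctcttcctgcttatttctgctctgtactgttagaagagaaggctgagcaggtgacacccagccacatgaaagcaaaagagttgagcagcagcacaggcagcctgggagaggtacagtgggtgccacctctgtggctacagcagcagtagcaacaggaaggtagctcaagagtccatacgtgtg
The Adk site held 2 matches, the Odc1 site held 1 and the Olig3 site held 0.

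A second pair of sequences comes from members with low ratios. The first is the 200-bp window, on the grid of the island calls, with the most Tcf/Lef matches in the member upstream of Myb, and was picked for those matches. The other is the central 300 bases of the member with the lowest ratio of all, downstream of the 3' end of Hamp. Capitals again mark Tcf/Lef matches.
Myb upstream window, chr10:20944001-20944200, + strand: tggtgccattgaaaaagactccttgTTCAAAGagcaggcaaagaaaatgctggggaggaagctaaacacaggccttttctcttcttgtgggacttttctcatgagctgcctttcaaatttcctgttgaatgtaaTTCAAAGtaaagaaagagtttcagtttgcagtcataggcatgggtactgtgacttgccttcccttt
Hamp 3' centre, chr7:31724651-31724950, + strand: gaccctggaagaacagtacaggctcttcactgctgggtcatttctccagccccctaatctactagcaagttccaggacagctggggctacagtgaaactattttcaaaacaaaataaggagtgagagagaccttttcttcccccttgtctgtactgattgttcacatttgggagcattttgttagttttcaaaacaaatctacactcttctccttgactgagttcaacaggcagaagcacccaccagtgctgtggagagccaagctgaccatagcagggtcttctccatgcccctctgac
The Myb window held 2 matches and the Hamp window held 0. Of the central 300-base windows, 11.2% held a Tcf/Lef match among members and 11.2% among all same-width pairs. Split by place, the shares were 19.3% of members and 12.3% of all pairs away from promoters, and 7.52% and 8.69% at promoters.

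The last set shows the 250 bases upstream of the start site at promoter members, 5' to 3' in the direction of transcription. Here capitals mark GGGCGG, the GC-box motif bound by SP and KLF factors, on both strands. Eomes was the promoter member with the lowest ratio, and Celf2, which encodes an RNA-binding splicing regulator, was the one with the most matches and was picked for them.
Eomes promoter, chr9:118387080-118387329, + strand: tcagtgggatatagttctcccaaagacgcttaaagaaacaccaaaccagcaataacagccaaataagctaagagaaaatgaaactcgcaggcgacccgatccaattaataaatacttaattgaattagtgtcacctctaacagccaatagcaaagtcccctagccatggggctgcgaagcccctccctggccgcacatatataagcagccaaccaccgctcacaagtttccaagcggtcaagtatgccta
Celf2 promoter, chr2:6793644-6793893, - strand: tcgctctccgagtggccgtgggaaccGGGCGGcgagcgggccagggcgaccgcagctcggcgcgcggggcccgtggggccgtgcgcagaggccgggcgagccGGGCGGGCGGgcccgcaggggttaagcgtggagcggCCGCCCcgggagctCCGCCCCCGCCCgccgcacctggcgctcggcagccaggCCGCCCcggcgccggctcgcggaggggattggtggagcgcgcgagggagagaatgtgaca
The Eomes window held 0 matches of either motif and the Celf2 window held 7 of GGGCGG. Among 277 member promoters with an upstream window free of annotated exons, 57.0% held GGGCGG, beside 48.7% of the 3258 windows of all same-width promoter pairs, with depth not matched.

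The members were deeply covered regions. Depth was expressed as counts per kb of island, and scaled depth as counts per kb per 1000000 counts of the list. The WT depth of members ranged from 168 to 3089 counts per kb with a median of 515, beside a median of 160 for all same-width pairs. Their dKO depth ranged from 67.9 to 1432 with a median of 223, beside a median of 112 for all pairs. The log2 dKO/WT ratio of members, after scaling, ranged from -2.02 to -0.59 with a median of -0.69, whereas the 12862 pairs had a median of -0.04 and an SD of 0.26. Only 14 members had a scaled dKO depth at or below 1/2 of the scaled WT depth. The median member island was 3.2 kb wide in WT and 3.4 kb in dKO, and 102 members (22.8%) had identical borders in both lists, close to the 23.8% of all pairs. The upper end of the counting interval lay at or below the limit in 177 members. The opposite set, pairs with a ratio of 1.5 or more, numbered 44 (0.342% of pairs).

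The rule cuts a continuous distribution. Just inside the limit were the Chd1 promoter (5427 WT and 2102 dKO counts, log2 ratio -0.59), an intergenic region 183 kb from 4930546C10Rik (435 and 202 counts, -0.59) and the Eif3a promoter (4006 and 1717 counts, -0.59). Just outside were the Rps3a promoter (3446 and 1965 counts, -0.58), the Agtpbp1 promoter (1902 and 845 counts, -0.58) and an intergenic region 8.47 kb from Cog2 (1347 and 627 counts, -0.58). No pair with a scaled WT depth below 1.56 could be a member, since the lowest scaled dKO depth of any pair was 1.04, and 21.8% of pairs lay below that WT depth.

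Most members lay at promoters. Of the 447, 306 (68.5%) reached within 1 kb of an annotated start site of a protein-coding gene, beside 29.1% of all same-width pairs and 4 of the 44 pairs (9.09%) that were higher in dKO. Read the other way, 8.18% of 3741 promoter pairs were members and 1.55% of 9121 pairs away from promoters. The remaining 141 members comprised 25 that overlapped an exon, 26 within introns and 90 in intergenic sequence, at a median of 30.4 kb from the nearest start site. Promoter members were deeper (median WT depth 618 counts per kb) than members away from promoters (280 counts per kb), and their log2 ratios were alike in the middle (medians -0.68 and -0.69). The lowest ratios were away from promoters, where the minimum was -2.02 compared with -1.05 at promoters.

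**Figure D1:**
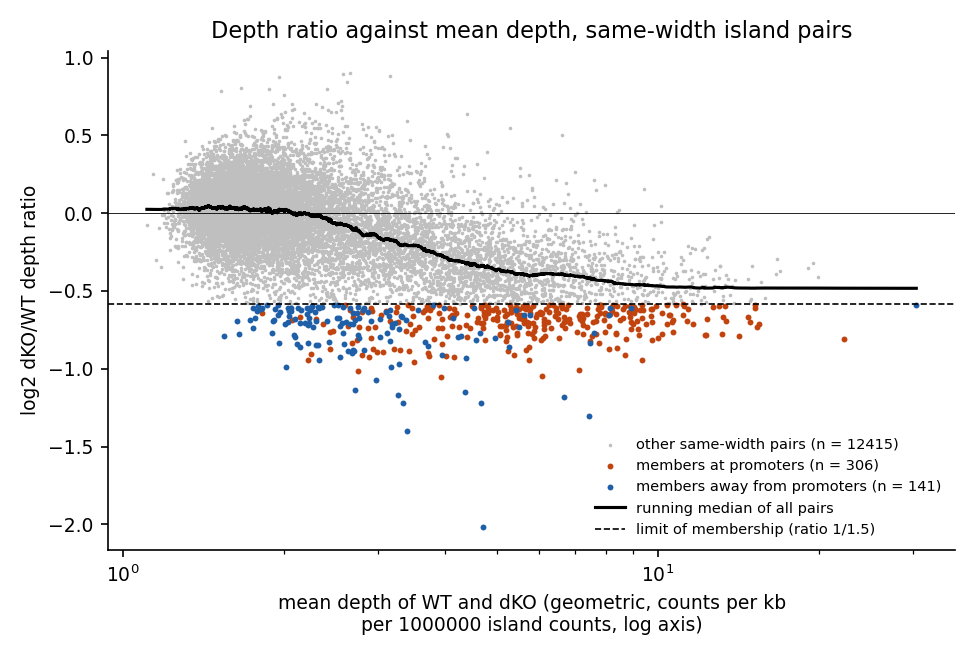
The log2 dKO/WT depth ratio of each of the 12862 same-width pairs (y axis) is plotted against the geometric mean of its WT and dKO scaled depth (x axis, log scale), with the 306 members at promoters, the 141 members away from them, the running median and the limit. The running median falls from near 0 at low depth towards the limit at high depth, where the promoter members lie.

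The ratio fell with depth across all same-width pairs, members or not. When the pairs were split into 10 equal classes by mean depth, the median log2 ratio was 0.03 in the shallowest class and -0.41 in the deepest. The deepest class held 232 of the 447 members, 217 of them at promoters, and the shallowest held 0. The share of promoter pairs rose over the same classes from 6.53% to 91.5%. The members' ratio, their depth and their promoter position thus moved together over the whole list, and whether the pooled libraries differed in enrichment was not tested.

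Subtracting from each pair's log2 ratio the running median of 500 pairs of like depth, an alternative chosen after seeing the data, left 133 pairs at or below the limit (1.03%). Of these, 126 were members, or 28.2% of the members. They comprised 34 at promoters and 92 away from promoters. Of the 133 pairs, 27.8% lay at promoters, beside 29.1% of all same-width pairs. The larger promoter share of members was thus not seen after depth centring. All 14 members with a scaled dKO depth at or below 1/2 of that in WT were among the 126. The promoters that stayed below the limit included Eomes, Opa1 (mitochondrial inner-membrane fusion), Gm14085, Atrnl1, Eid2, Hells (a chromatin remodeller needed for DNA methylation), Klf4 and Celf2. Those that did not stay included the deepest ones: Sec62, a translocation protein of the endoplasmic reticulum, with 2440 WT counts per kb and a log2 ratio of -0.81, and Arrdc3, an arrestin-domain protein, with 1641 WT counts per kb and -0.71.

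Promoter members were rich in CpG dinucleotides. The observed/expected CpG ratio, which compares the CpG count with that expected from the C and G content, had a median of 0.61 in promoter members and 0.38 in all promoter pairs. In members away from promoters it was 0.21, beside 0.18 in all such pairs. A ratio over 0.6 was found in 9.93% of members away from promoters and in 0.713% of all such pairs. CpG content and depth went together among promoter pairs, so members were counted within terciles of both. In the upper depth tercile, members made up 22.3% of the 835 most CpG-rich pairs, 9.68% of 341 in the middle and 8.45% of 71 in the lowest CpG tercile. In the middle depth tercile the shares were 15.0% of 267, 3.49% of 631 and 0.287% of 349. In the lower depth tercile they were 5.52% of 145, 0.364% of 275 and 1.09% of 827. The most CpG-rich tercile thus had the largest share of members at each of the 3 depth levels. Depth still rose with CpG inside the terciles, from a median mean scaled depth of 5.23 to 6.85 in the upper and from 1.87 to 2.31 in the lower, so depth was not fully matched.

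**Figure D2:**
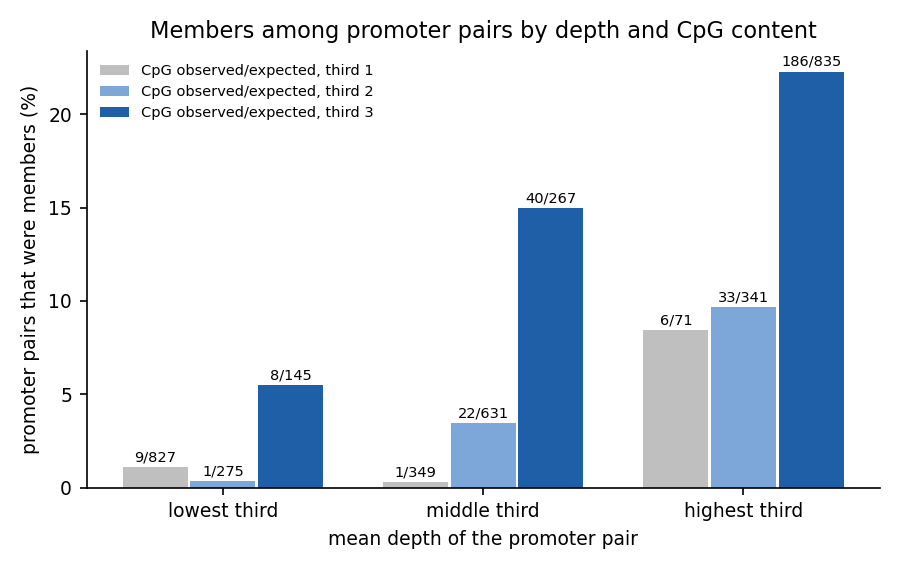
Bars give the percent of same-width promoter pairs that were members (y axis, from 0) in each tercile of mean depth (x axis) and of observed/expected CpG ratio (shade), with members over pairs printed above. The share is largest in the most CpG-rich tercile at each depth, 22.3% at the highest depth.

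The GGGCGG motif occurred 1.33 times per kb in promoter members (counting interval 1.26 to 1.39) and 0.645 times per kb in all promoter pairs. Among promoter pairs of the deepest of the 10 depth classes the gap was smaller, at 1.34 per kb (1.26 to 1.42) in members and 1.01 (0.987 to 1.04) in other pairs. Away from promoters GGGCGG was also denser in members, at 0.28 per kb (0.237 to 0.329) beside 0.156 in all such pairs. In depth classes 8 to 10 away from promoters it stood at 0.373 (0.311 to 0.444) in members and 0.215 in other pairs. The Tcf/Lef motif occurred 0.424 times per kb in all members (0.394 to 0.456) and 0.404 times per kb in all same-width pairs, a difference within the counting interval. It occurred 0.476 times per kb (0.419 to 0.539) in members away from promoters, beside 0.427 in all such pairs, and 0.402 (0.367 to 0.439) in promoter members, beside 0.370. RUNX (TGTGGT) matches were less dense in members, at 0.735 per kb (0.696 to 0.776) beside 0.905 in all pairs, as were AP-1 (TGAGTCA) matches at 0.151 (0.133 to 0.170) beside 0.192. Matches to the ETS motif, GGAAGT, and to the motif of GATA factors, AGATAA, stood at 0.723 and 0.537 per kb in members and at 0.720 and 0.548 in all pairs. Away from promoters, RUNX stood at 0.857 (0.780 to 0.940) in members and 0.934 in all pairs, and AP-1 at 0.204 in both. Among promoter pairs of the deepest class, RUNX stood at 0.661 (0.609 to 0.716) in members and 0.761 in other pairs. AP-1 stood there at 0.125 (0.103 to 0.150) and 0.149, a difference within the counting interval. In members kept after depth centring, RUNX stood at 0.867 (0.782 to 0.959) and AP-1 at 0.183 (0.145 to 0.228). Both of these intervals held the value of all pairs. A match is a run of letters, not evidence of binding.

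Among the 10 members with the lowest ratios and at least 500 counts over both lists, 10 of 10 lay away from protein-coding promoters. The one upstream of Myb reached within 1 kb of an annotated noncoding start site. Their observed/expected CpG ratios ranged from 0.09 near BC094916 to 0.94 near Zfhx3, beside a median of 0.18 in all pairs away from promoters. The lowest was chr7:31724201-31725400, downstream of Hamp, which encodes the iron-regulatory hormone hepcidin. It had 941 WT and 162 dKO counts over the same 1.2 kb, a log2 ratio of -2.02 (-2.26 to -1.78) or 4.05-fold lower scaled depth in dKO. Next came chr1:175477201-175479400, in the Pyhin gene cluster near BC094916, with 1004 WT and 217 dKO counts (-1.40, -1.61 to -1.19). The region chr10:55834601-55836400, over exons annotated to D630037F22Rik and Msl3l2, had 1740 and 492 counts (-1.30, -1.45 to -1.16).

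The member upstream of Myb was the widest of the low ones but for 1 region. Myb encodes a transcription factor needed for T cell development and for the stem-like state of CD8+ T cells. The member, chr10:20940401-20949200, lay 59.6 kb upstream of the Myb start site and fell from 3617 counts over 8.6 kb in WT to 1034 counts over 8.2 kb in dKO (-1.22, -1.32 to -1.12). The wider one, chr10:122030801-122049800, 66.0 kb from Ppm1h, had 5390 counts over 16.2 kb in WT and 1964 over 18.6 kb in dKO (-1.14, -1.21 to -1.06). An intron of Msrb3, a methionine sulfoxide reductase gene, held 1782 and 578 counts (-1.17). The other 4 lay nearest to Mpp7, Clcn4-2, Zfp329 and Zfhx3, with log2 ratios from -1.22 to -1.07.

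**Figure D3:**
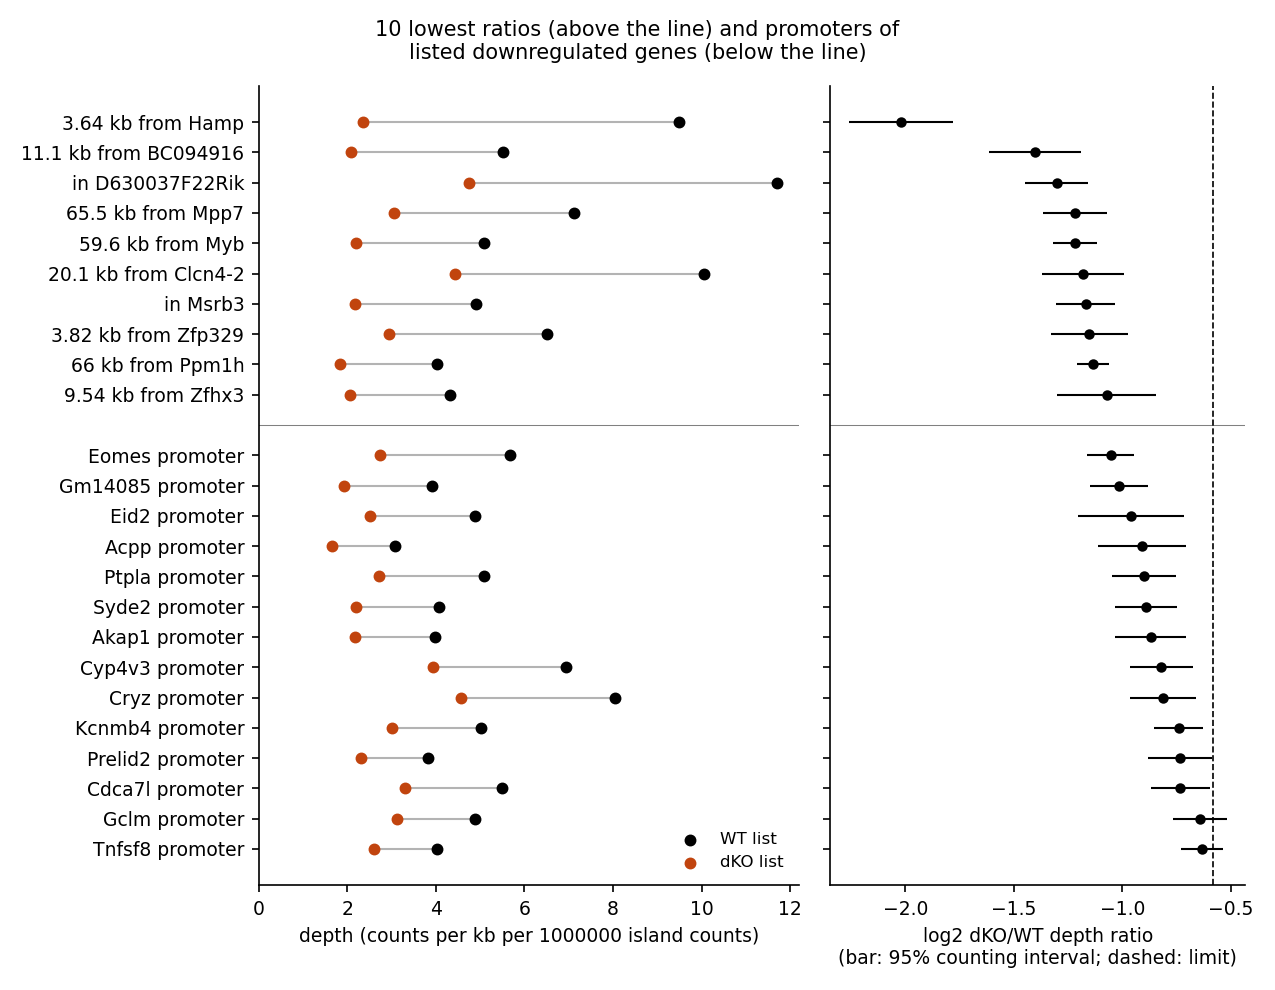
For the 10 members with the lowest ratios (upper block) and the 14 promoter members of listed downregulated genes (lower block), the left panel gives scaled depth in WT (black) and dKO (red), in counts per kb per 1000000 island counts, and the right panel the log2 dKO/WT ratio with its 95% counting interval and the limit as a dashed line. Ratios span -2.02 to -1.07 in the upper block and -1.05 to -0.63 in the lower.

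The 10 members with the most WT counts were mostly broad regions. Of these, 8 lay over promoters, 1 in Slc37a3 and 1 in intergenic sequence 29.9 kb from Irf4, which encodes a transcription factor of activated lymphocytes. The largest, chr6:48672401-48704600, spanned Gimap1, Gimap5 and Gimap7, GTPases that support survival of naive T cells, with 23111 WT and 9660 dKO counts over the same 32.2 kb (-0.74, -0.77 to -0.70). The region over Stat5a and Stat5b, the transcription factors that act below the IL-2 and IL-7 receptors, had 14619 and 6438 counts (-0.67). Stk4, a Hippo-pathway kinase required for naive T cell survival, had 13848 and 6292 counts (-0.73). Tmsb10, an actin-sequestering thymosin, had 16924 and 7715 (-0.59), and Leprotl1 and Tmem66 shared a region with 19605 and 10967 (-0.59). The Irf4-proximal region, chr13:30871001-30889400, had 10807 and 4046 (-0.73). After centring on pairs of like depth, their log2 ratios ranged from -0.47 to -0.20, all above the limit.

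Of the 4128 genes with a same-width pair over a promoter, 360 (8.72%) had a member there. Symbol families, counted after the members were seen, gave 3 of 19 for cytosolic ribosomal proteins (Rpl21, Rpl34 and Rpl38), 4 of 28 for mitochondrial ribosomal proteins (Mrpl32, Mrps18a, Mrps22 and Mrps30) and 3 of 8 for proteasome subunits (Psma2, Psmd1 and Psmd6), Mrpl32 and Psma2 sharing 1 member. Solute carriers gave 5 of 55 and Zfp-named zinc finger genes 2 of 93. Rpl34 was the lowest of the ribosomal promoters, at -0.94 with 1072 WT counts per kb. None of the 10 ribosomal and proteasome genes stayed below the limit after depth centring.

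Few genes of the CD8+ T cell lists drawn up for this comparison had a same-width promoter pair. Of the lists of naive identity and homing (6 genes with a same-width promoter pair), T cell receptor signalling (8), cytokine and chemokine receptors (1), effector and cytotoxic genes (5), Wnt and Tcf pathway (7) and quiescence and survival (5), only Eomes was a member. Lists this small cannot be set apart from the 8.72% of all genes. The nearest others were Ikzf1, the Ikaros factor gene, at -0.53 (22425 WT and 10767 dKO counts), Ptprc, which encodes CD45, at -0.47, and Ptpn22, a phosphatase of receptor signalling, at -0.46. Klf2, which controls naive T cell homing, stood at 0.19 and Bcl11b, a T lineage factor, at -0.00. Within the gene body or up to 50 kb upstream, members also fell in an intron of Inpp4b, a lipid phosphatase gene (809 and 326 counts, -0.61), and 33.6 kb from Il6st, which encodes the gp130 receptor subunit (5740 and 2650 counts, -0.65).

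Members were compared with RNA lists of the study, which were measured in other libraries. Of the 257 listed genes lower in dKO cells, 61 had a same-width pair over a promoter, and 14 (23.0%) had a member there, beside 8.72% of all genes. Of the 312 listed genes higher in dKO cells, 80 had such a pair and 0 had a member. The median log2 ratio of the promoter pairs was -0.29 for the lower genes, 0.07 for the higher genes and -0.26 for all genes. After depth centring, 8 of the 14 stayed below the limit, or 13.1% of the 61 genes beside 0.896% of all genes. The centred share of the 80 higher genes was 0%, which cannot be set apart from 0.896%. Over gene bodies and 50 kb upstream, 15.3% of the lower genes with a pair had a member, beside 1.61% of the higher genes and 7.05% of all genes. With 1 pooled list per genotype these are counts of genes, with no test.

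The 14 genes had different roles. Eomes encodes a T-box factor of effector and memory CD8+ T cells, and its promoter region chr9:118385201-118391400 had 2537 counts over 5.4 kb in WT and 947 over 6.0 kb in dKO (-1.05, -1.16 to -0.95). Tnfsf8 encodes CD30 ligand, with 2998 and 1199 counts (-0.63). Gm14085, which resembles the nucleoside transporter gene Slc28a2, had 1873 and 602 counts (-1.01). Kcnmb4, a subunit of potassium channels, had 2156 and 900 (-0.74). Akap1, an anchor of protein kinase A at mitochondria, had 1051 and 426 (-0.87), and Gclm, a subunit of the rate-limiting enzyme of glutathione synthesis, had 1696 and 757 (-0.64). Eid2, Acpp, Ptpla, Syde2, Cyp4v3, Cryz, Prelid2 and Cdca7l lay between -0.96 and -0.73. The study's list of pan-T genes gave 4 of 36 (Gimap5, Gm14085, Kcnmb4 and Tnfsf8), pan-NK genes 5 of 50 and effector CD8 genes 4 of 93. The naive CD8 list gave 0 of 14, the naive CD4 list 0 of 4 and the Treg list 0 of 30. B cell genes gave 5 of 64, granulocyte genes 2 of 110 and monocyte genes 1 of 42. Conventional dendritic cell genes gave 3 of 40, plasmacytoid ones 2 of 59 and gamma-delta T cell genes 3 of 81. The 95% interval of the share held the 8.72% of all genes for each of these lists but the granulocyte list (0.5% to 6.39%). After depth centring the granulocyte share was 0.909%, close to the 0.896% of all genes.

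**Figure D4:**
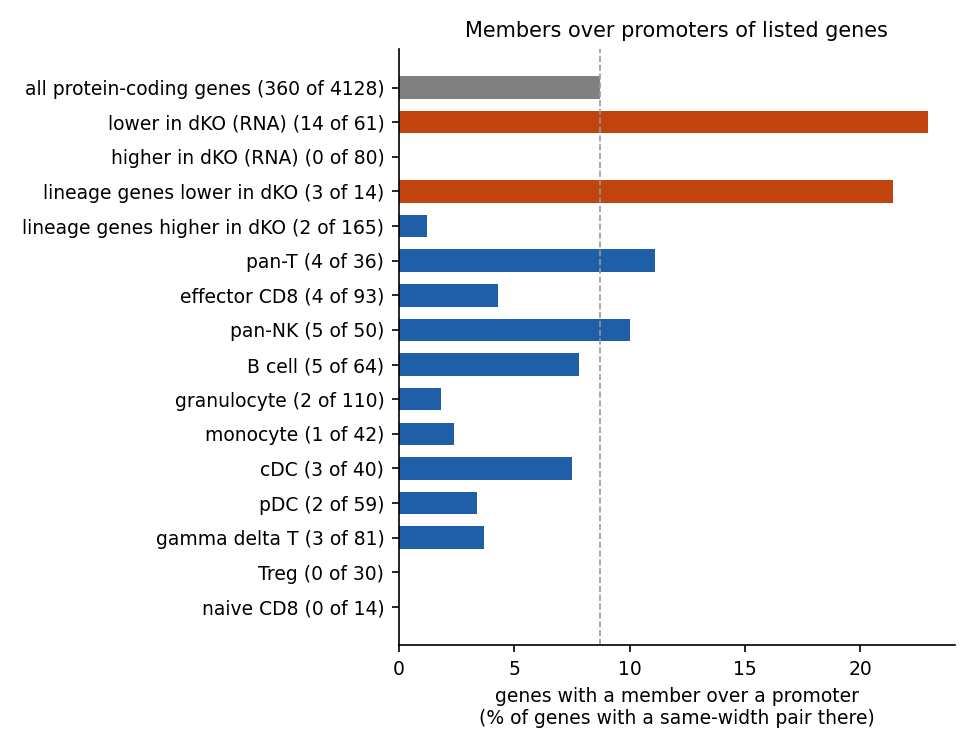
Bars give the percent of genes with a member over a promoter, out of the genes with a same-width pair there (x axis, from 0), for all protein-coding genes, for the genes the study listed by RNA and for its lineage lists, with counts beside each name. The genes lower in dKO reach 23.0% and those higher in dKO 0%, on either side of the 8.72% of all genes (dashed line). Shares are before depth centring.

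Accessible sites of cluster 4 were found in 5 members (1.12%), beside 15 of all same-width pairs (0.117%). They were the Adk and Odc1 sites shown above, the Olig3 site, and sites at the Akap1 and Prelid2 promoters. The Adk intron member had 813 and 386 counts (-0.86, -1.03 to -0.69) and the Odc1 member 2377 and 852 (-0.92, -1.04 to -0.81). The 15 pairs with a cluster 4 site had a median log2 ratio of -0.34, which includes the members, low by rule. The 10 of them that were not members had a median of -0.27. After depth centring, 4 of the 5 members stayed below the limit, the exception being the Olig3 region at -0.54. Cluster 1, sites more accessible in dKO and linked to genes higher in dKO, was found in 0 members and 24 of all pairs, at a median log2 ratio of 0.25. Cluster 3, sites also more accessible in dKO, was found in 0 members and 2 of all pairs, at a median of 0.23. Of cluster 2, sites less accessible in dKO but linked to genes higher in dKO, 1 lay in a member (0.224%), at the Ncoa5 promoter (1667 and 821 counts, -0.80). Among all pairs, 12 held a cluster 2 site (0.0933%), at a median of -0.14, and the 11 that were not members had a median of -0.10.

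The lists of accessible sites used here hold sites linked to listed genes and may not be whole clusters. Of the 98 cluster 4 sites in the list, 97 lay in a merged region but only 15 in a same-width pair. The same-width rule thus left out most of these sites.

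The study's super-enhancers (SEs) and interaction hubs were called in the same cells, and the SEs rest on these same H3K27ac libraries, so SE overlap is not independent of depth. The lists used here hold only SEs and hubs linked to listed genes (49 WT-prepotent and 88 dKO-prepotent SEs, 49 WT-specific and 35 dKO-specific hubs), and the others were not analysed here. The listed WT-prepotent SEs, those stronger in WT, held 8 members (1.79%) and 1.72% of all same-width pairs, and the listed dKO-prepotent SEs held 2 members (0.447%) and 3.21% of all pairs. The 8 were the region upstream of Myb, 2 regions upstream of Odc1, the promoters of Gm14085 and Syde2, the Gimap region, the Inpp4b intron and a region in AF064781. After depth centring, 7 of the 8 stayed below the limit. The listed WT-specific hubs, from chromatin contact maps, held 4 members (0.895%) and 0.847% of all pairs, and the listed dKO-specific hubs held 1, the Eid2 promoter (0.224%), and 0.645% of all pairs. The Myb region lay in both a listed WT-prepotent SE and a listed WT-specific hub.

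Regions near members were lower in dKO too, by far less than the members. The nearest region with islands in both lists, on each side and with members left out, had a median log2 ratio of -0.09 for members (893 neighbours) and -0.01 for the other same-width pairs (24816 neighbours). Within 5 kb the medians were -0.09 for members and 0.01 for other pairs. For members away from promoters the median was -0.14 within 5 kb, and for promoter members it was -0.05, beside 0.01 and -0.01 for all pairs of the 2 kinds. Of the members' neighbours, 5.60% were at or below the limit, beside 3.05% for other pairs. Split by place, the shares were close at promoters, with 5.40% for members and 5.06% for all pairs. Away from promoters they were 6.03% and 2.36%. Members' neighbours lay farther off than those of other pairs, at a median of 14.2 kb beside 3.2 kb. The share at or below the limit rose with distance for members and for other pairs. Beyond 20 kb the groups were close, with 6.94% and 6.13% at or below the limit and medians of -0.09 and -0.06. Joined across gaps of up to 50 kb, members formed 414 single regions, 15 pairs and 1 run of 3. No like count was made for other same-width pairs.

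The run of 3 lay at the Hamp locus on chromosome 7. The Hamp2 promoter region had 1199 WT and 502 dKO counts (-0.68), the region downstream of Hamp 941 and 162 (-2.02), and the Hamp promoter region 1365 and 521 (-0.87). Between the first and second lay 2 WT islands, of 428 and 154 counts, with no dKO island. The same-width pair before the run, chr7:31691001-31705600, stood at -0.39. The member downstream of Hamp aligned over 100% of its length, at 92.4% identity, to chr7:31704353-31705589, and the Hamp and Hamp2 members aligned to each other at 87.1% identity. Reads from such copies are hard to place, and the files hold uniquely aligned reads.

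A second group of members, picked out after the values were seen, lay on chromosome 3 between Ccna2, the cyclin A2 gene, and the genes of the cytokines IL-2 and IL-21. From the Ccna2 promoter to beyond Il21, flanks included, 5 of 33 merged regions were members: the Ccna2 promoter (1086 and 462 counts, -0.63), the 4932438A13Rik promoter (6033 and 2287, -0.80) and the region next to it (2646 and 1035, -0.83), the region chr3:37116601-37121600 directly beyond the 3' end of Il21 (1012 and 430, -0.66), and one further upstream of Il21 (959 and 406, -0.94). Of the 15 regions there with islands in both lists, 13 were below 0, with a median of -0.23. These include the 5 members, which are below 0 by rule, and the locus was picked for its members. Over all autosomal regions with islands in both lists, 53.1% were below 0, with a median of -0.02. Of all 76633 merged regions, 447 were members. At the locus, another 14 regions had an island in WT alone and 4 in dKO alone. Over all autosomes, 9396 regions had one in WT alone and 21448 in dKO alone. Among the WT-only islands was one of 1800 counts upstream of Il21.

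Of the list of T cell receptor complex and signalling genes, 0 of 19 genes with a same-width pair in the gene body or 50 kb upstream had a member there, beside 7.05% of all genes. The Wnt and Tcf pathway list gave 0 of 13 and the quiescence and survival list 0 of 9. Lists this small cannot be set apart from the 7.05% of all genes. A few single members outside the rules for naming are given as values, picked out after these were seen. An intron of Cblb, a ubiquitin ligase that restrains T cell receptor signalling, held 6805 and 2258 counts (-0.91). A region 59.5 kb from Itpr2, a calcium-channel gene, held 6418 and 1944 (-0.93). An intron of Mef2c held 432 and 152 (-0.84), an intron of Stim1, the calcium sensor of the endoplasmic reticulum, 474 and 184 (-0.68), and a region 109 kb from Ifng 355 and 154 (-0.69). Cblb, Itpr2, Mef2c and Stim1 stayed below the limit after depth centring, and the Ifng-proximal region, at -0.48, did not.

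Some members share sequence with other places in the genome. Another place aligned over at least 90% of the member at 95% identity or more for 7 members, and over at least 500 bp at 85% or more for 28. The Pyhin1-proximal member on chromosome 1 aligned at 95.1% identity to a stretch of the BC094916-proximal member, and the Gm14085 promoter aligned over 79.1% of its length at 93.0% to a place on the same chromosome. The deepest member, 60.8 kb from Gm15319 with 3089 WT and 1432 dKO counts in 1 kb, had 2 such copies at up to 96.7%. Leaving out the 7 gave 440 members with a promoter share of 69.3%.

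Over the series as a whole, the WT list held 65563 islands and 82668007 counts and the dKO list 82213 islands and 57665047 counts. Promoter islands were present in both lists for 6 of 6 CD8 T cell markers, and also for 5 of 6 B cell markers and 5 of 6 myeloid markers, with Pax5 and S100a8 found in dKO alone. Erythroid Hba-a1 and Alas2, NK cell Ncr1 and Klra8 and plasmacytoid Siglech had none in either list. Of the NK, erythroid and plasmacytoid lists, 2 of 4, 1 of 3 and 2 of 3 had islands in both. No member lay over a promoter of these markers, but few of them had a same-width promoter pair. Such pairs numbered 1 each for CD8 T, B and NK cell markers, 2 for myeloid and 0 for erythroid and plasmacytoid markers. Counts this small cannot be set apart from the 8.72% of all genes. Cd22, a B cell marker, had a member in its body or up to 50 kb upstream. The part of other cells in the members' ratios was not tested. Islands lay over Tcf7 and Lef1 in both lists, which does not check the deletion. Members made up 2.33% to 5.43% of same-width pairs on each autosome, with 3.01% on chromosome 11, which carries Tcf7, and 3.96% on chromosome 3, which carries Lef1.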

How the data were processed

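H3K27ac was profiled by ChIP-seq in sorted naive CD8+ T cells (4 WT and 3 dKO libraries, 1 input each). Per the study's methods and the submitters' processing notes, the authors aligned reads with Bowtie2 2.2.5 to mm9, kept uniquely aligned reads, pooled replicates and called islands with SICER 1.1 (200-bp windows, 400-bp gaps, FDR 0.01). Handling of duplicates and input was not given in the sources used here. The deposited files list each island with its raw read count, and these counts hold only reads in islands. Pooling leaves no replicate, so no test was run. Larger pooled counts narrow the counting intervals only.

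Islands were merged and paired in Python 3.11.15 with pandas 2.3.3. Depth was scaled by each list's total counts. Promoters reached 1 kb either side of protein-coding start sites of GENCODE vM1 (mm9). Second copies were sought with minimap2 2.31-r1302. Members and lists were chosen with earlier results of these data known. Named by rule were the 10 lowest ratios with at least 500 counts, the 10 largest WT counts, promoters of pathway or listed downregulated genes, members with listed sites, the 3 longest runs, and 3 pairs on each side of the limit. Study gene names were matched by symbol or synonym: 240 of 257 lower and 290 of 312 higher genes. Scripts were tested on simulated data.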

Additional observations from a re-analysis of the deposited data

How the results depend on the processing

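The number of members was 447 and became 1271 at 50% overlap, 228 at 90%, 278 when scaled by totals over shared regions, 14 at a ratio of 1/2, 177 when the interval had to lie below the limit, and 133 when centred on pairs of like depth, an alternative chosen after seeing the data. Lower pairs made up 91.0% of calls in either direction, 75.1% with shared-region totals (92 higher), 82.5% when centred on the median pair (70 higher) and 60.7% with depth centring (86 higher). The promoter share, 68.5%, became 77.1% at 50% overlap, 28.6% at a ratio of 1/2 and 27.8% with depth centring. Of all same-width pairs at 80% overlap, 29.1% lay at promoters. Neighbours, at -0.09, moved to -0.20 at 1/2 and -0.15 with centring. Tcf/Lef matches, 0.424 per kb, were 0.389 at 50% overlap, 0.582 at 1/2 and 0.468 with centring. The share with a listed accessible site, 1.34%, was 0% at 1/2 and 3.01% with centring. Of all same-width pairs, 0.412% held such a site. The share of downregulated genes, 23.0%, was 13.5% at 90% overlap, 3.28% at 1/2 and 13.1% with centring. The share of all genes was 8.72% and became 0.896% with centring. It is not given at 90% overlap or at 1/2, so those 2 shares cannot be set against it. The other 26 planned and 11 added values stayed within the count's 1.5-fold range or the value's counting interval, and 0 reversed. Causes were not tested, beyond the smaller sets that stricter limits leave. No paired analysis was possible because the replicates of each genotype were pooled before deposit, and no replicate could be left out for the same reason. Depth limits shallow pairs, and intervals cover counting error only.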
